A study of Mus musculus with 24 samples.

Results

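The livers compared here came from mice that received only the vehicle of the CCl4 experiment, corn oil injected repeatedly for 4 weeks. The genotypes could thus be compared without the liver injury. Any other inherited difference between the N-RAS+/+ and N-RAS-/- mice cannot be told apart from the loss of N-RAS. The 3 N-RAS-/- livers (arrays N27, N28 and N29) were set against the 3 N-RAS+/+ livers (N21, N22 and N23), which makes 6 of the 24 arrays of the series. The mice were labelled male and 8-10 weeks old. They were bred on a C57BL/6J background. No other engineered allele and no other agent was named for either group. N-RAS-/- mice lack the gene in every cell of the body, so that an effect in hepatocytes cannot be told apart from one in other cells. The remaining arrays held 3 N-RAS+/+ and 3 N-RAS-/- livers each after CCl4, a hepatotoxin given for the same 4 weeks, and on day 28 after bile duct ligation (BDL) or a sham operation. All 21143 genes that could be given a single symbol were tested. Nothing in the labels ties the arrays to litters or days, and with 3 arrays a group the number of arrays limits the precision.

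N-RAS is one of the classical Ras proteins, small GTPases that switch between a GDP-bound and a GTP-bound form at membranes. Exchange factors such as SOS load them with GTP, GTPase-activating proteins such as neurofibromin return them to the GDP form, and the loaded form engages Raf kinases, which start the MEK-ERK cascade, and PI3-kinase. In liver, these pathways carry signals from growth factor and insulin receptors. Insulin and glucose in turn set the expression of the enzymes that turn glucose into fat, while cytokines of the interleukin-6 and interleukin-1 families set that of the acute-phase proteins which hepatocytes secrete.

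Nras itself was lower in the N-RAS-/- livers. Its log2 signal was 5.92, 6.30 and 6.91 in the N-RAS+/+ arrays and 5.34, 5.10 and 4.91 in the N-RAS-/- arrays. The groups did not overlap, although the gap between the lowest N-RAS+/+ and the highest N-RAS-/- array was smaller than the spread within the N-RAS+/+ group. The difference was -1.26 ± 0.23 on the log2 scale (SE, n = 3 and 3; adjusted p = 0.0149, limma), a 2.40-fold lower signal. It passed the threshold in 3 of the 6 fits that left out a single oil array and missed it without N22, N23 or N29. It was also missed with only the 6 oil arrays in the fit (adjusted p = 0.0738) and with values floored at a linear signal of 32 (difference -1.23, adjusted p = 0.103). The same contrast gave -2.27 after CCl4 (adjusted p = 2.84e-05), -1.44 after sham operation (adjusted p = 0.014) and -2.16 after BDL (adjusted p = 0.000575). Whether the probes of this set lie in the deleted part of the gene is not given in the sources used here, so that the remaining signal cannot be read as remaining message.

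The other Ras GTPases did not pass the test. Hras, another classical Ras protein, differed by 0.03 ± 0.19 (adjusted p = 0.962). Of the 15 Ras GTPases listed, 1, Nras, passed the test, and Rap2a had the next smallest adjusted p (difference -0.53 ± 0.18, adjusted p = 0.22). The median difference over the list was -0.09, beside 0.00189 over all genes tested. None of the 28 Ras exchange factors, GTPase-activating proteins and Raf kinases, of the 27 members of the MAP kinase cascade, of the 21 PI3K and AKT genes, of the 17 ERK feedback inhibitors or of the 21 AP-1 and immediate early genes passed the test by limma. At an unadjusted p under 0.05, the numbers were 6, 5, 2, 1 and 1, in the same order, where 12.5% of all genes passed. The medians of these lists were 0.16, 0.09, 0.08, 0.06 and -0.22.

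The 10 tested genes on each side of Nras in gene order on chromosome 3 were measured as well, since DNA next to a targeted gene is often inherited with it. Of these 20 neighbours 1 passed the test: Hipk1, a kinase of the homeodomain-interacting family 7 places from Nras, was higher in N-RAS-/- livers by 0.65 ± 0.13 (adjusted p = 0.032). Its signal was 9.99, 10.01 and 9.98 in N-RAS+/+ and 10.60, 10.72 and 10.62 in N-RAS-/- livers. The call was lost in each of the 6 fits without a single oil array, in which the difference stayed between 0.61 and 0.67. The other neighbours ranged from -0.35 (Casq2) to 0.42 (Olfml3), and Ampd1, which adjoins Nras, differed by -0.10.

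Over all genes, 179 of 21143 passed an adjusted p under 0.05, which is 0.847% of the genes tested and is what a gene being called means below. Of these, 113 were higher (0.534%) and 66 were lower (0.312%) in N-RAS-/- livers. At an unadjusted p under 0.05, 2634 genes passed. In all 179 genes the arrays of the genotypes did not overlap, a property shared by 17.6% of all genes. The called differences ran from 0.60 to 3.46 upwards, with a median of 1.01, and from -0.63 to -4.30 downwards, with a median of -1.24. A difference of at least 2-fold was reached by 60 of the higher and 44 of the lower genes. Only 58 of the 179 genes were called in each of the 6 fits without a single oil array. Leaving out N21, N22 or N29 took the count to 76, 80 or 96. The methods' t-test on the same values passed 2174 genes unadjusted and 0 after Benjamini-Hochberg adjustment.

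**Figure D1:**
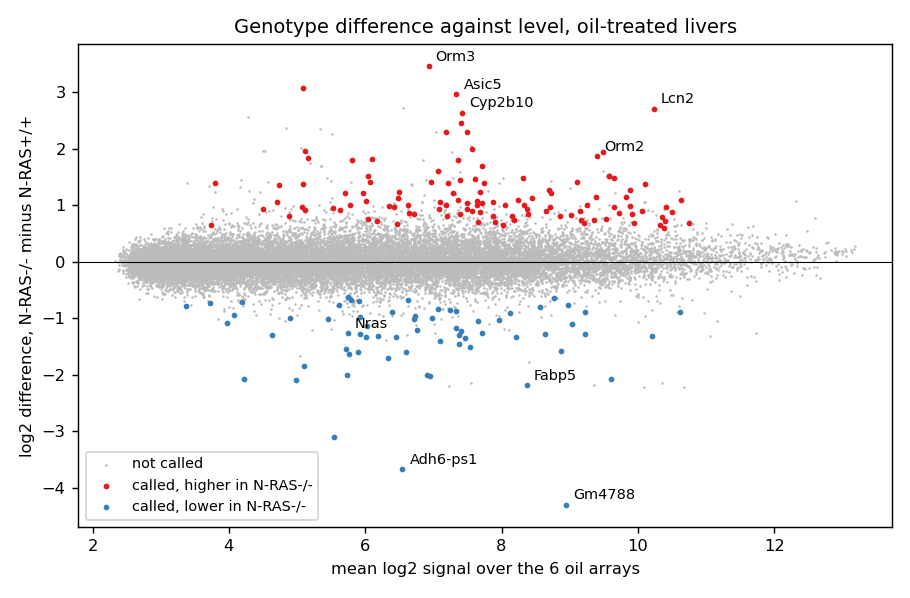
Genotype difference in oil-treated livers (vertical axis, log2, N-RAS-/- minus N-RAS+/+) against the mean log2 signal over the 6 oil arrays (horizontal axis), a point for each of 21143 genes. The 113 genes called higher and the 66 called lower are coloured and lie at all signal levels, with Gm4788 (-4.30) and Orm3 (3.46) at the extremes.

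Array N28, an N-RAS-/- liver, stood apart from the other oil arrays and is named beside many, not all, of the results that it touches. List medians given without that note can also move. That of the AP-1 and immediate early genes went from -0.22 to -0.08 without N28, and that of the NRF2 antioxidant targets from -0.09 to 0.009. The mean log2 signal of 4 Y-linked genes was 3.0 on N28 and between 7.51 and 7.99 on the other 5 oil arrays, although all mice were labelled male. The summed linear signal of 22 genes known to be male-biased in mouse liver was 19631 on N28 and 46537 to 59316 on the others. That of 30 female-biased genes was 46499 on N28 and 5854 to 9368 on the others. The 5 sham arrays with equally low Y-linked signal (3.19 to 3.59) belong to both genotypes. Without N28, 135 genes were called (0.639%), of which 107 were among the 179. None of the 179 changed sign, which was fixed in advance, because their arrays did not overlap between the genotypes.

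The lists of sex-biased genes depended on N28. The median difference of the female-biased list was 1.14 with N28 and 0.12 without it. That of the male-biased list went from -0.26 to 0.28, and that of the Y-linked list from -1.49 to -0.03. In the female-biased list, 1 gene was called with all arrays: Cyp2b10, a cytochrome P450 that is induced by ligands of the nuclear receptor CAR. Cyp2b10 measured 5.75, 7.06 and 5.50 in N-RAS+/+ livers and 7.60, 10.52 and 8.11 in N-RAS-/- livers, with N28 the highest array. The difference was 2.64 ± 0.57 (adjusted p = 0.0464) with N28 and 1.75 (adjusted p = 0.0515) without it. Leaving out N28, 1 other gene of this list was called, lower in N-RAS-/- livers. In the male-biased list, Selenbp2, a selenium-binding protein, was lower (difference -1.45 ± 0.25, adjusted p = 0.0126) and stayed called without N28 (-1.19, adjusted p = 0.0401).

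**Figure D2:**
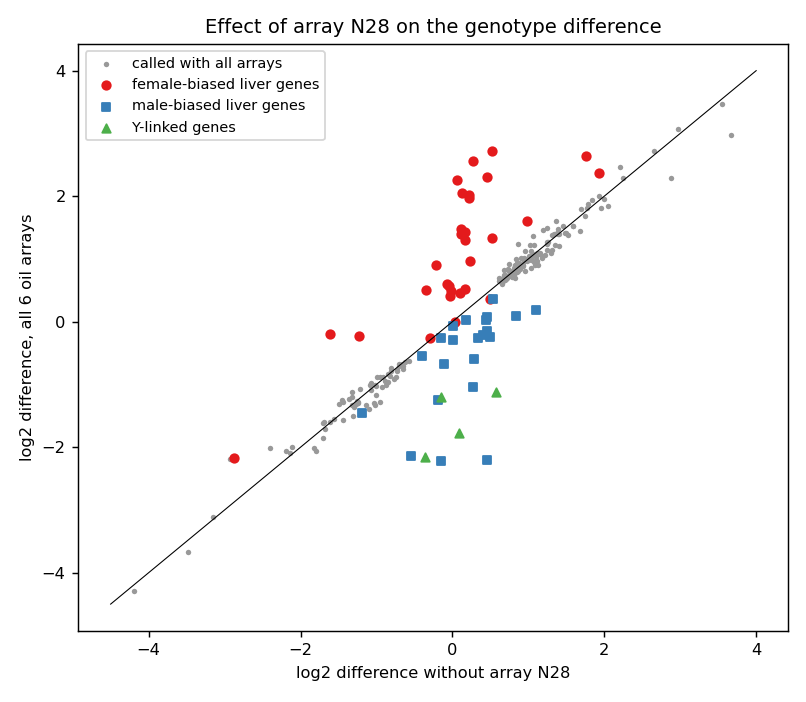
Genotype differences (log2, N-RAS-/- minus N-RAS+/+) with all 6 oil arrays (vertical axis) against those without array N28 (horizontal axis), with the line of equality. The female-biased genes (median 1.14 against 0.12), male-biased genes (-0.26 against 0.28) and Y-linked genes (-1.49 against -0.03) mostly lie off the line. The 179 called genes mostly lie along it, which their choice favours, because N28 was in the fit that called them. Some leave the line, among them Asic5 (2.97 against 3.66) and Cyp2b10 (2.64 against 1.75). Without N28, 72 of the 179 calls were lost.

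Of the 46 gene lists, that of the acute phase had the most members called. Orm3, Orm2 and Lcn2 were higher in N-RAS-/- livers, by 11-fold, 3.66-fold and 6.55-fold. Orm2 and Orm3 encode orosomucoids, plasma glycoproteins released by hepatocytes during inflammation, and Lcn2 encodes lipocalin 2, a protein that binds bacterial siderophores and so withholds iron. The promoters of these 3 genes are shown because the genes were higher together, each as the 300 bases from 250 before to 50 after the annotated start, from RefSeq (GRCm38.p6). Capitals mark matches, on either strand, to TTGCNNAA, a core of the sites bound by C/EBP factors, which drive many acute-phase genes. Orm2 lies at chr4:63362199-63362498 (+ strand), Orm3 at chr4:63355908-63356207 (+ strand) and Lcn2 at chr2:32387690-32387989 (- strand, shown 5′ to 3′ in the direction of transcription).
Orm2: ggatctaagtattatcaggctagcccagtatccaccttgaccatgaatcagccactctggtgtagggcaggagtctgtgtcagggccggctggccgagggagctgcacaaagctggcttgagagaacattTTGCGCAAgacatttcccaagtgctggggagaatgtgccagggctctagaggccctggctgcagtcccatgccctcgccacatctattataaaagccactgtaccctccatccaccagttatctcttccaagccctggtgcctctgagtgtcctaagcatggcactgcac
Orm3: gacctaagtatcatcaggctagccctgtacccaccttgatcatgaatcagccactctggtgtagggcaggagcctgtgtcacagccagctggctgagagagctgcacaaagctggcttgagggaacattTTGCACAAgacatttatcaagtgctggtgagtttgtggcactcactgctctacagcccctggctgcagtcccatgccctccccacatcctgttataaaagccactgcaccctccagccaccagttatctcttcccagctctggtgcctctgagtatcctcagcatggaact
Lcn2: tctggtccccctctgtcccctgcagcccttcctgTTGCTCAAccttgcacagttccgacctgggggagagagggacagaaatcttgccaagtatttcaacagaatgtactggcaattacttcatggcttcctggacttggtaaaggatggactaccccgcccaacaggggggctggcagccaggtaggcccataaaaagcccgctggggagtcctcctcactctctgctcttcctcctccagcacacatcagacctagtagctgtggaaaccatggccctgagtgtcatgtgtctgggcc

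Each of the 3 windows held 1 match, whose first base lay at -120 from the start in Orm2, -121 in Orm3 and -216 in Lcn2. The motif was present in 10.8% of the 32851 promoter windows of the same length and in 13 of the 25 acute-phase genes listed that have a window. None of the 3 windows held TTCNNNGAA, the palindromic form bound by STAT proteins, which was present in 8.3% of all windows. A match describes the letters only.

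Lcn2 measured 8.46, 8.59 and 9.57 in N-RAS+/+ livers and 10.45, 11.71 and 12.60 in N-RAS-/- livers. Every N-RAS-/- array was above every N-RAS+/+ array, and the spread was wider in the N-RAS-/- group. The difference was 2.71 ± 0.41 (adjusted p = 0.00447). Orm2 measured 8.32, 8.03 and 9.03 against 10.07, 10.51 and 10.42, a difference of 1.87 ± 0.24 (adjusted p = 0.0012). Orm3 measured 5.26, 4.06 and 6.27 against 7.74, 8.50 and 9.74, a difference of 3.46 ± 0.48 (adjusted p = 0.00274). The groups did not overlap in either gene, and the N-RAS-/- arrays lay closer together for Orm2 than for Orm3. Orm2 and Orm3 are close paralogs, and which of them a probe reads could not be checked here. All 3 genes were called in each of the 6 fits without a single oil array, and without N28 the differences were 2.65, 1.79 and 3.54 for Lcn2, Orm2 and Orm3.

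The rest of the acute-phase list did not pass the test. Of 28 members tested, 3 were called, all higher, and 23 had a difference above 0. The median was 0.44, and 0.42 without N28. The summed signal of the list was 60768 to 102007 in N-RAS+/+ livers, with N21 the lowest, and 87136 to 121258 in N-RAS-/- livers, so that the sums overlapped. Apcs, the serum amyloid P component, did not overlap between the groups (difference 0.90 ± 0.28, adjusted p = 0.183). Named after their values were seen, Lbp, which binds lipopolysaccharide, differed by 0.52 (adjusted p = 0.224), Serpina3n, a secreted protease inhibitor, by 0.63 (adjusted p = 0.307), and Saa1, serum amyloid A, by 1.01 ± 0.43 (adjusted p = 0.355).

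A few genes of glucose and lipid metabolism were called lower in N-RAS-/- livers. Angptl8 is in no list and was named after its values were seen. This secreted factor, which is induced by feeding and restrains lipoprotein lipase, measured 8.25, 8.28 and 8.50 against 7.10, 7.49 and 6.69, a difference of -1.25 ± 0.21 (adjusted p = 0.01). The groups did not overlap, and the gene was called in each of the 6 fits without a single oil array.

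Pfkfb3, G6pdx and Me1 were called lower with all arrays and missed the threshold without N28. Pfkfb3, which makes the activator of phosphofructokinase, measured 8.20, 7.96 and 7.89 against 6.88, 6.22 and 7.10 (difference -1.29 ± 0.26, adjusted p = 0.0322), and it missed the threshold without N28 (adjusted p = 0.101). G6pdx, the entry enzyme of the pentose phosphate pathway, measured 8.56, 7.92 and 8.03 against 7.41, 6.90 and 7.08 (difference -1.04 ± 0.22, adjusted p = 0.0457; 0.125 without N28). Me1, the cytosolic malic enzyme, which like G6PDX supplies NADPH, measured 11.25, 10.75 and 11.17 against 10.37, 9.90 and 10.24 (difference -0.88 ± 0.18, adjusted p = 0.0349; 0.114 without N28). In each of these 3 genes the groups did not overlap. G6pdx and Me1 stand in the list of NRF2 antioxidant targets, of whose 22 members tested these 2 were called, both lower, and none without N28. The median of that list was -0.09.

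The members of the glucose and fatty acid lists with the next smallest adjusted p did not pass the test. Pklr, the liver pyruvate kinase, differed by -0.95 ± 0.22 (adjusted p = 0.0648). Fasn, fatty acid synthase, differed by -0.86 ± 0.23 (adjusted p = 0.102), Acly, which makes cytosolic acetyl-CoA, by -0.77 ± 0.22 (adjusted p = 0.124), and Gpam, the first enzyme of triglyceride synthesis, by -0.88 ± 0.25 (adjusted p = 0.125). The groups did not overlap in any of these 4 genes, as in 17.6% of all genes. The 4 were taken for their small adjusted p, which favours such a gap. None of the 28 genes of the fatty acid synthesis and lipid droplet list was called, and their median was -0.10, with 11 above 0 and 17 below. Of the 20 genes of glucose production and storage, 2 were called, both lower and Pfkfb3 among them, and the median was 0.04, with 12 genes above 0 and 8 below.

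**Figure D3:**
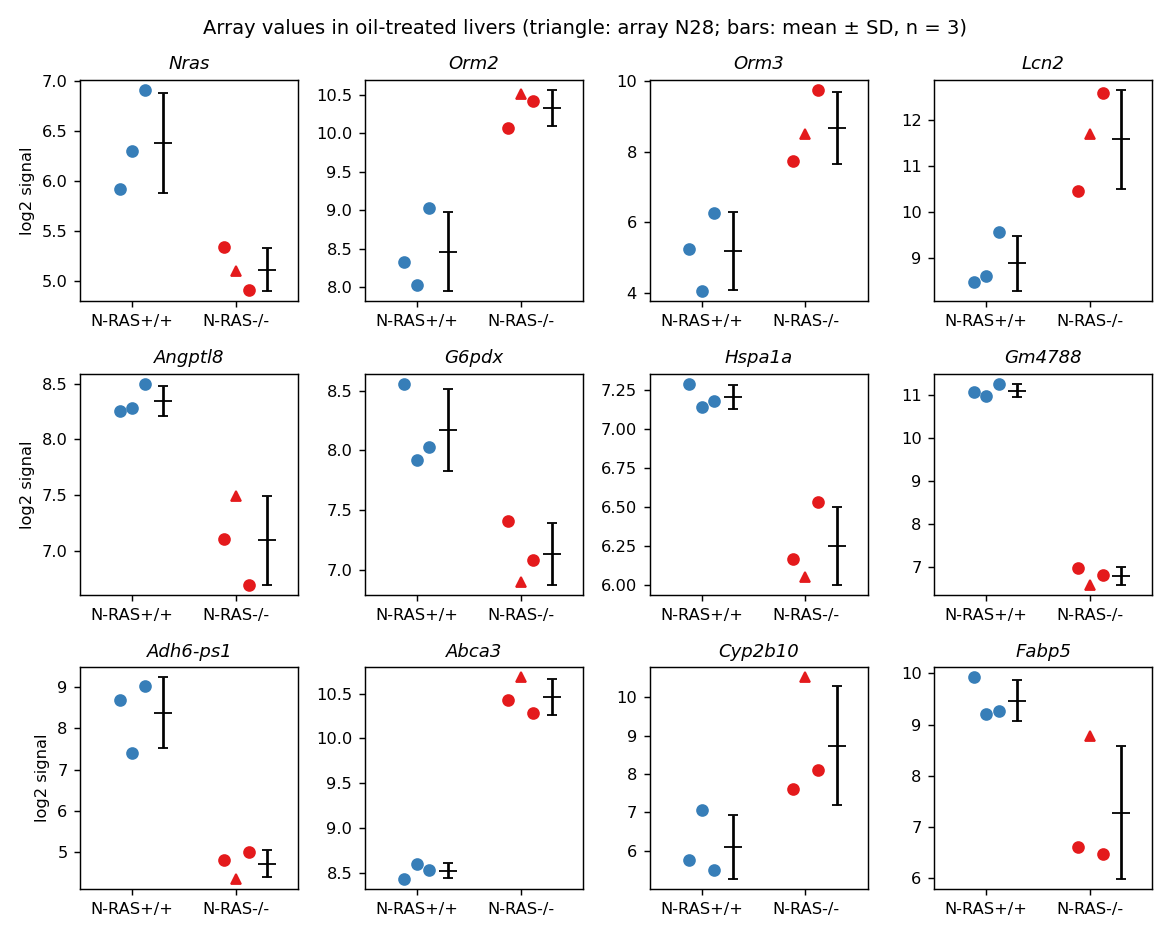
Log2 signal of 12 genes on each oil array, N-RAS+/+ in blue and N-RAS-/- in red, with array N28 as a triangle and black bars for the mean ± SD (n = 3). All 12 are called genes, in which the groups never overlap, so that the gaps were fixed by the choice (17.6% of all genes do not overlap). N28 is the highest N-RAS-/- array for Cyp2b10 (10.52) and for Fabp5 (8.77).

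Genes of resident macrophages and of interferon responses were mostly above 0, and few passed the test. Spi1, which encodes the myeloid transcription factor PU.1, measured 8.41, 8.95 and 9.08 in N-RAS+/+ and 10.09, 9.62 and 10.17 in N-RAS-/- livers (difference 1.15 ± 0.22, adjusted p = 0.0195). Cd163, a haemoglobin scavenger receptor of macrophages, measured 6.48, 6.03 and 7.02 against 7.59, 7.88 and 8.25 (difference 1.40 ± 0.24, adjusted p = 0.0122), and was named after its values were seen. Cxcl13, a chemokine that attracts B cells, measured 7.26, 6.23 and 7.10 against 8.50, 8.43 and 8.72 (difference 1.69 ± 0.32, adjusted p = 0.0189). Cxcl13 was the only gene called among the 26 cytokines, chemokines and NF-kB targets, whose median was 0.03, with 16 above 0 and 10 below. In none of these 3 genes did the groups overlap, and they were called in 2, 3 and 4 of the 6 fits without a single oil array.

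All 11 markers of Kupffer cells, the macrophages that reside in liver sinusoids, had a difference above 0, with a median of 0.60. None was called with all arrays. Clec4f, a lectin confined to Kupffer cells, measured 8.27, 8.22 and 8.66 against 9.32, 8.94 and 9.52 (difference 0.87 ± 0.19, adjusted p = 0.053). Without N28, 2 of the 11 were called, Clec4f (1.03, adjusted p = 0.0352) and C1qb, a chain of complement C1q (0.96, adjusted p = 0.0452), and the median was 0.70. The summed linear signal of the 11 markers was 2453 to 3256 in N-RAS+/+ and 3753 to 5037 in N-RAS-/- livers. In bulk liver, more cells of a type and more RNA per cell cannot be told apart. What part the macrophage signal has in the acute-phase differences was not tested. The 10 markers of monocytes and macrophages summed to 890 to 1268 against 1505 to 1932, with Spi1 as the only gene called. Their median difference was 0.04 (6 above 0, 4 below), and Spi1 was among the members of highest signal, which a sum follows. None of the 10 neutrophil markers was called, with sums of 371 to 409 against 309 to 451, and of the 9 B and plasma cell markers 1, Jchain, the chain that joins polymeric immunoglobulins, was called (difference 1.80 ± 0.40, adjusted p = 0.0492; 0.12 without N28). The summed signal of the hepatocyte markers, 58406 to 79329 against 73893 to 84771, and that of the cholangiocyte markers, 715 to 749 against 735 to 1053, overlapped between the genotypes. Those of the stellate and fibroblast markers, 2617 to 2877 against 3043 to 3193, and of the B and plasma cell markers, 191 to 209 against 225 to 387, did not overlap and were higher in N-RAS-/- livers. A sum follows its members of highest signal, and the lists as a whole were not shifted. The median difference was -0.07 for the stellate and fibroblast markers (4 above 0, 5 below, none called). For the B and plasma cell markers it was 0.003 (5 above 0, 4 below). The sums of endothelial, T and NK cell, erythroid, muscle, adipocyte and pancreas markers overlapped. For endothelial, T and NK cell, erythroid and neutrophil markers, the overlap came from N28 alone (2446, 459, 309 and 309). On N27 and N29 the endothelial sums were 3515 and 3372, against 2532 to 3125 in N-RAS+/+ livers. Those of T and NK cell markers were 665 and 802 against 469 to 560. Erythroid sums were 1195 and 1057 against 722 to 851, and neutrophil sums were 415 and 451.

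Of 32 interferon-stimulated genes, 30 had a difference above 0 and 1 was called. Oas2, a sensor of double-stranded RNA, measured 5.60, 5.23 and 5.57 against 6.22, 6.57 and 6.84 (difference 1.08 ± 0.21, adjusted p = 0.0248; 0.0648 without N28). The median of the list was 0.49, and 0.61 without N28. Psmb8, an immunoproteasome subunit, differed by 0.65 ± 0.15 (adjusted p = 0.0667), and Ifit1, an antiviral RNA-binding protein, by 1.13 ± 0.28 (adjusted p = 0.0859). The 10 genes of MHC class II presentation had a median of 0.46 and no member called, or 1, H2-Eb1, without N28 (0.99, adjusted p = 0.0333).

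Heat shock genes mostly had differences below 0. Of 16 tested, 12 had a difference below 0, the median was -0.55, and 1 was called. Hspa1a, the inducible HSP70, measured 7.29, 7.14 and 7.18 in N-RAS+/+ and 6.17, 6.05 and 6.53 in N-RAS-/- livers (difference -0.96 ± 0.15, adjusted p = 0.00767), and the call stood in all 6 fits without a single oil array. Hsph1, a co-chaperone of HSP70, measured 8.63, 8.92 and 9.65 against 8.34, 8.21 and 7.70 (difference -0.98 ± 0.23, adjusted p = 0.0648). The highest value of Hsph1 came from N23. The summed signal of the list was 12273 to 18444 in N-RAS+/+ livers, with N23 the highest, and 12669 to 12992 in N-RAS-/- livers, so that the sums overlapped.

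**Figure D4:**
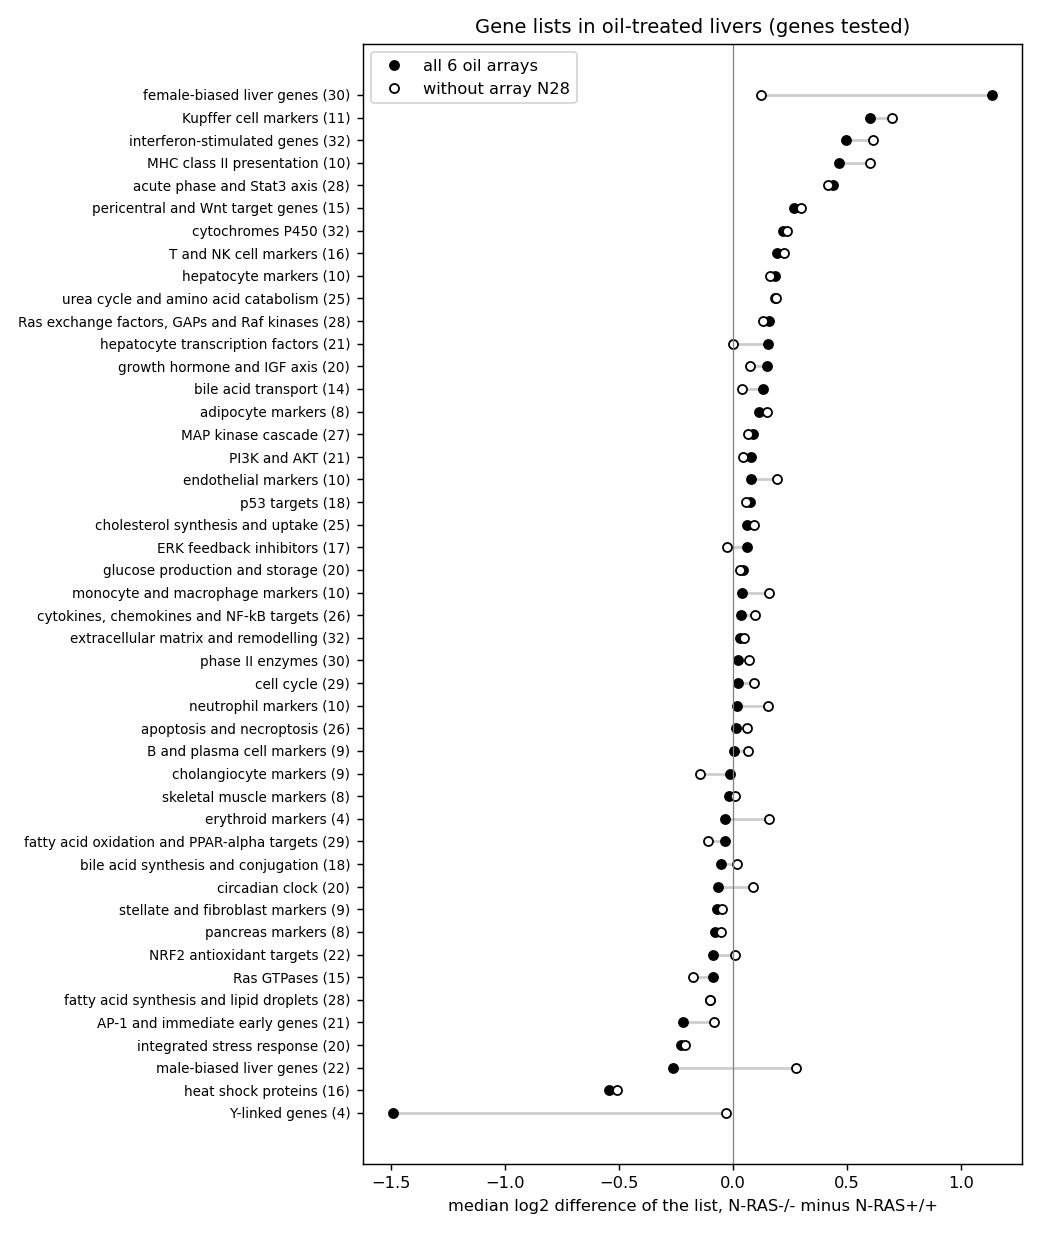
Median log2 difference (N-RAS-/- minus N-RAS+/+) of the 46 gene lists in oil-treated livers, with all 6 oil arrays (filled) and without array N28 (open); the number of genes tested is in parentheses. Kupffer cell markers (0.60), interferon-stimulated genes (0.49) and acute-phase genes (0.44) lie above 0 and heat shock proteins (-0.55) below it, while the female-biased list moves from 1.14 to 0.12 without N28.

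Most of the other lists held no called gene. In all, 32 of the 46 lists had none, among them bile acid synthesis (18 genes tested, median -0.05), cholesterol synthesis and uptake (25, 0.06), fatty acid oxidation (29, -0.04), extracellular matrix and remodelling (32, 0.03), cell cycle (29, 0.02) and circadian clock (20, -0.07). Single members were called in a few more. Bak1, a pro-apoptotic member of the BCL2 family, was higher (difference 0.67 ± 0.13, adjusted p = 0.032; 0.0686 without N28), as was Sult5a1, a cytosolic sulfotransferase (1.42 ± 0.22, adjusted p = 0.00534). Slc13a3, a carrier of dicarboxylates, was higher by 0.89 ± 0.19 (adjusted p = 0.0365; 0.0717 without N28). Of the 179 called genes, 18 (10.1%) belonged to a list, as did 3.97% of all genes tested, and 161 to none.

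The largest decreases were in genes outside these pathways. Gm4788, which belongs to the complement factor H family, measured 11.07, 10.97 and 11.26 in N-RAS+/+ livers and 6.99, 6.59 and 6.83 in N-RAS-/- livers. The spread within either group was small beside the gap, and the difference was -4.30 ± 0.16, or 19.7-fold (adjusted p = 1.41e-09). Adh6-ps1, an alcohol dehydrogenase pseudogene, measured 8.70, 7.40 and 9.03 against 4.80, 4.35 and 4.99 (difference -3.67 ± 0.35, adjusted p = 8.68e-05). 1700001C19Rik measured 7.15, 7.08 and 7.04 against 3.64, 4.08 and 4.24 (difference -3.10 ± 0.20, adjusted p = 1.54e-06). All 3 were called in each fit without a single oil array.

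Of the 15 largest decreases, the other 12 lay between -1.60 and -2.19. Fabp5, a fatty acid-binding protein, measured 9.92, 9.21 and 9.26 against 6.60, 8.77 and 6.47, and N28 was the N-RAS-/- array nearest to the N-RAS+/+ arrays. The difference was -2.18 ± 0.44 (adjusted p = 0.0314) with N28 and -2.93 (adjusted p = 3.21e-05) without it, and the call was lost when any other oil array was left out. Dio1, the deiodinase that activates thyroxine, measured 7.63, 7.75 and 8.51 against 5.71, 6.71 and 5.42 (difference -2.02 ± 0.31, adjusted p = 0.00475). Csad, a step of taurine synthesis, was lower (difference -2.07 ± 0.29, adjusted p = 0.00274), and Ifi213, an interferon-inducible p200-family gene, was lower as well (difference -2.01 ± 0.29, adjusted p = 0.00377). The remaining 8 were Ildr2, Ube2u, Nxpe2, Crybg3, Cryzl2, Cfap126, Arsg and Plekhb2.

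Beside Orm3, Lcn2, Cyp2b10 and Orm2, the 15 largest increases held genes that belong to none of the lists. Prelid2 measured 3.67, 3.90 and 3.07 in N-RAS+/+ and 6.79, 6.83 and 6.23 in N-RAS-/- livers (difference 3.08 ± 0.21, adjusted p = 3.1e-06). Asic5, a channel that bile acids activate, measured 5.53, 6.49 and 5.53 against 9.61, 7.43 and 9.42 (difference 2.97 ± 0.46, adjusted p = 0.00559), and N28 was the lowest N-RAS-/- array. Abca3, a lipid transporter best known from lung surfactant, measured 8.43, 8.60 and 8.53 against 10.43, 10.68 and 10.28 (difference 1.95 ± 0.19, adjusted p = 8.68e-05). B3galnt1, a glycosyltransferase, differed by 1.84 ± 0.23 (adjusted p = 0.000977). Fam107a, Mid1, Meiob, Lrtm1, D630033O11Rik, Olfr1372-ps1 and Abi3bp made up the rest, between 1.81 and 2.46. Of these, Fam107a missed the threshold without N28 (adjusted p = 0.0529) and without N21, N22 or N29. Mid1, with N28 the lowest N-RAS-/- array, differed by 2.29 (adjusted p = 0.0464) with N28 and by 2.88 (adjusted p = 0.00674) without it. Its call was lost when any other oil array was left out.

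Called genes lay close together on the chromosomes more often than tested genes did in general. Of 175 called genes with a place in the reference order, 42 (24%) had another called gene within 5 tested genes on either side, whereas 7.35% of all 20604 placed genes did. A run of 22 tested genes on chromosome 2, from Gm2026 to Zfp931, accounted for 14 of the 42. These are mostly genes of a cluster of near-identical zinc finger genes. All 14 were higher, and the differences over the whole run were between 0.06 and 1.52, with a median of 0.84. Gm14419 and Gm2004 measured the same on every array (8.79, 8.73 and 8.93 against 10.50, 10.22 and 10.31; difference 1.52 ± 0.13, adjusted p = 4.59e-05), and therefore count as 1 measurement. Gm14295 differed by 1.42 ± 0.14 (adjusted p = 9.55e-05). Members of this cluster share sequence, and which of them gave the signal could not be checked.

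The genotype contrast in the other treatments used other mice and shared no array with the oil contrast. The CCl4 contrast came from the same fit, however, and shared the estimate of the spread with the oil contrast. A gene with a small spread is thus more easily called in both, and the shares called after CCl4 are not independent of the oil calls. The sham and BDL contrasts were fitted apart. Of the 113 genes called higher in oil, 71 were called higher after CCl4 (62.8%), 30 after sham operation (26.5%) and 27 after BDL (23.9%). Over all genes, 8.72%, 0.246% and 0.525% were called higher in these contrasts. Of the 66 genes called lower in oil, 35 were called lower after CCl4 (53%), 20 after sham operation (30.3%) and 16 after BDL (24.2%), where the background was 5.56%, 0.18% and 0.18%. In either direction, the 3 contrasts called 14.3%, 0.426% and 0.705% of all genes. The direction in oil was kept, without regard to the test, by 97 of 113 higher genes after CCl4, 107 after sham operation and 84 after BDL, and by 53, 60 and 47 of 66 lower genes. Low Y-linked signal was seen on 5 of the 6 sham arrays, including all 3 of the N-RAS-/- group, so that the sham contrast could not be taken without them.

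In all 4 treatments, 30 genes were called in the same direction, 19 higher and 11 lower. Among the lower genes were Nras, Gm4788 (-4.30, -4.28, -4.20 and -4.01 after oil, CCl4, sham operation and BDL), 1700001C19Rik (-3.10, -1.73, -2.93 and -2.41), Adh6-ps1 (-3.67, -1.55, -3.05 and -1.30), and the neighbouring p200-family genes Ifi213 (-2.01, -2.01, -2.58 and -2.12) and Mndal (-1.55, -1.46, -1.81 and -1.59). Among the higher genes were Prelid2 (3.08, 3.56, 2.74 and 2.46), Abca3 (1.95, 1.40, 1.18 and 2.11), B3galnt1 (1.84, 1.80, 2.27 and 1.61), Rfk, the riboflavin kinase (1.48, 1.41, 1.03 and 1.01), and 8 genes of the zinc finger run. For Gm4788 the effect after CCl4 less that in oil was 0.01 ± 0.23 (adjusted p = 0.985), whereas the decrease of Adh6-ps1 was smaller after CCl4 than in oil (difference of the differences 2.11 ± 0.50, adjusted p = 0.039).

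**Figure D5:**
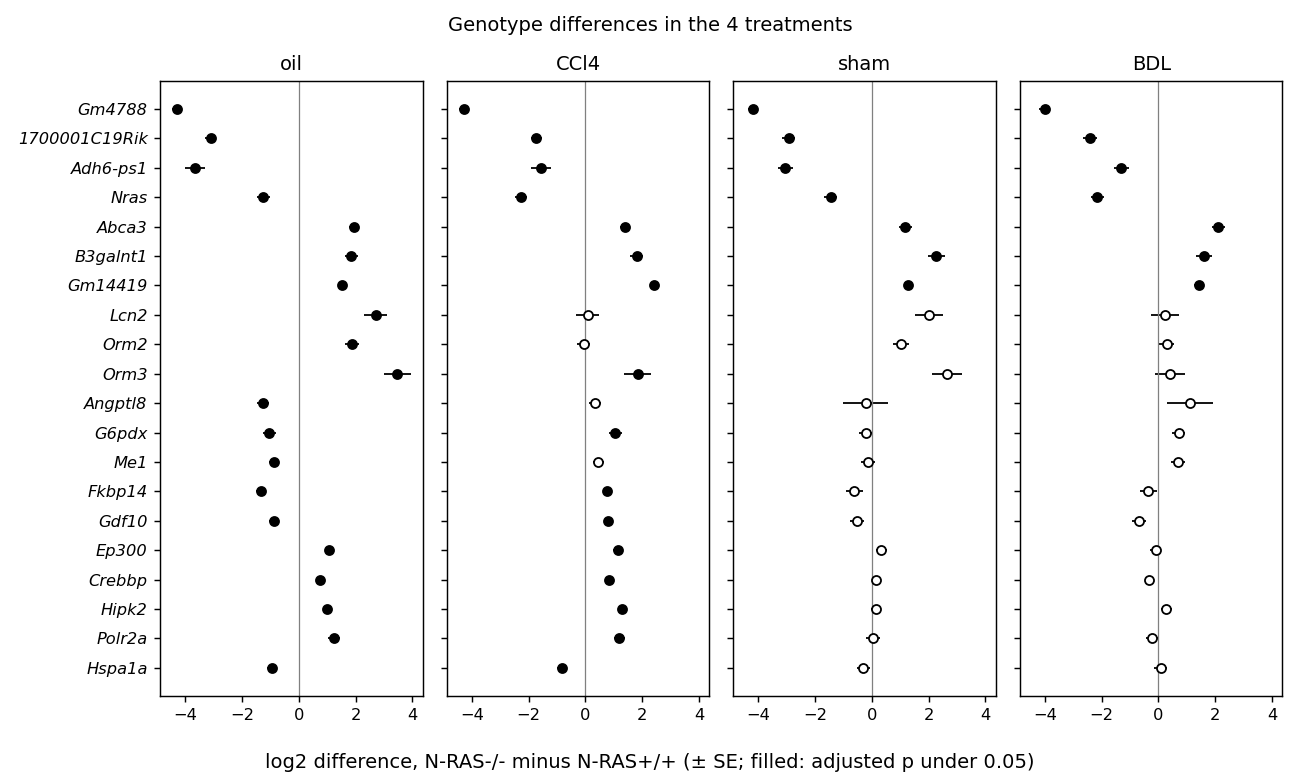
Genotype difference (log2, N-RAS-/- minus N-RAS+/+, ± SE) of 20 genes after oil, CCl4, sham operation and BDL; filled points have an adjusted p under 0.05. Gm4788 lies between -4.30 and -4.01, G6pdx changes sign from -1.04 in oil to 1.06 after CCl4, and Ep300, Crebbp, Hipk2 and Polr2a lie above 0 in oil and after CCl4 and are not called after sham operation and BDL.

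The next genes, regulators of transcription and chromatin, were picked because they were called higher, so that their direction is no result about a group. Ep300 and Crebbp encode the acetyltransferases p300 and CBP, and Polr2a the largest subunit of RNA polymerase II. Ep300 measured 7.31, 6.92 and 7.07 against 8.00, 8.06 and 8.46 (difference 1.07 ± 0.16, adjusted p = 0.00417). Polr2a measured 6.91, 6.84 and 6.29 against 7.51, 8.21 and 7.99 (difference 1.22 ± 0.21, adjusted p = 0.01). Both were called in all 6 fits without a single oil array, as was Hipk2, a kinase of the same family as Hipk1 (0.99 ± 0.14, adjusted p = 0.00354). Crebbp measured 9.20, 9.13 and 9.14 against 9.77, 10.05 and 9.90 (difference 0.75 ± 0.14, adjusted p = 0.016) and missed the threshold without N28 (adjusted p = 0.0665).

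After CCl4, Ep300 (1.14), Polr2a (1.20), Hipk2 (1.31) and Crebbp (0.82) were called higher again. After sham operation they differed by 0.34, 0.03, 0.14 and 0.15, and after BDL by -0.10, -0.21, 0.29 and -0.33, and none was called. Whether the effect in oil differs from that after sham operation or BDL was not tested, because the 2 experiments were fitted apart. Kdm6b, a histone demethylase that was called in oil (0.80 ± 0.17, adjusted p = 0.0477; 0.125 without N28), was at -0.05 after CCl4.

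The difference between the genotype effect after CCl4 and that in oil was tested for every gene, and 499 genes were called (2.36%). Among the genes called in oil, 24 of the 113 higher and 13 of the 66 lower had such a difference. These genes were chosen for a large effect in oil, which the test of the difference also uses, so their share is not set against that of all genes. Of the 179 genes, 7 were called in opposite directions in oil and after CCl4, 3 higher and 4 lower in oil.

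Among the 4 that were lower in oil and higher after CCl4 were G6pdx, Fkbp14 and Gdf10. Fkbp14, Gdf10 and the 3 genes of the opposite pattern were named after their values were seen. G6pdx was at -1.04 and 1.06 (adjusted p after CCl4 = 0.00583; difference 2.10 ± 0.32, adjusted p = 0.00406). Fkbp14, a prolyl isomerase of the endoplasmic reticulum that acts on collagen, was at -1.33 and 0.77 (difference 2.10 ± 0.23, adjusted p = 0.00084), and Gdf10, a BMP-like factor, at -0.89 and 0.81 (difference 1.69 ± 0.21, adjusted p = 0.00151). Me1, at -0.88 in oil, was at 0.46 after CCl4 (adjusted p = 0.108), and the difference was called (1.34 ± 0.26, adjusted p = 0.016), as it was for Angptl8 (-1.25 and 0.33; difference 1.58 ± 0.30, adjusted p = 0.0146). In sham-operated livers G6pdx differed by -0.21 (adjusted p = 0.894).

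The 3 that were higher in oil and lower after CCl4 were 1810046K07Rik (1.53 and -1.08; difference -2.61 ± 0.39, adjusted p = 0.00398), Igsf11, an adhesion molecule of the immunoglobulin superfamily (1.0 and -0.53), and Plbd1, a lysosomal phospholipase (0.81 and -0.53). Without N28, 1810046K07Rik and Plbd1 missed the threshold in oil (adjusted p = 0.0501 and 0.084). Of the 3 acute-phase genes called in oil, Lcn2 and Orm2 had a smaller effect after CCl4. Lcn2 was at 2.71 in oil and 0.09 after CCl4 (difference -2.63 ± 0.57, adjusted p = 0.0271), and Orm2 at 1.87 and -0.06 (difference -1.93 ± 0.34, adjusted p = 0.0106). Orm3 was called in both, at 3.46 and 1.84, and the difference between them did not pass the test (adjusted p = 0.241). After sham operation Lcn2, Orm2 and Orm3 were at 2.0 (adjusted p = 0.14), 1.02 (adjusted p = 0.193) and 2.65 (adjusted p = 0.0513), in arrays most of which had low Y-linked signal. After BDL they were at 0.24, 0.29 and 0.42. Spi1, at 1.15 in oil, was at -0.32 after CCl4 (difference -1.47 ± 0.31, adjusted p = 0.022).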

How the data were processed

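Total RNA of whole liver was hybridised to Affymetrix mouse arrays, 1 array a liver. Per the deposited value table, the authors gave 1 log2 value per probe set and array. The normalization is not stated, and the submitters' notes name MAS5 without saying for what. The genome build is not given in the sources used here. A second deposited table holds the authors' linear signal means per group, which equal the means of the log2 table after conversion (largest relative difference 1.1e-15). It served for gene symbols only, and the authors' own ratios and p-values in it were not used.

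Of 22206 probe sets, 21367 had 1 symbol, 836 several and 3 none. Symbols were updated through RefSeq in 945 cases, and 541 were not found there. For a gene with several probe sets, that of highest mean signal stood for it, giving 21143 genes. limma 3.58.1 in R 4.3.3 was fitted to the 12 arrays of the CCl4 experiment with a coefficient for each group, so that the groups shared 1 estimate of the spread, and p-values were adjusted by Benjamini-Hochberg over all genes. Sham and BDL arrays were fitted apart in the same way. No filter on low values was applied. The script was tested on simulated data. Replicates are separate arrays. The limma p-values set each difference against the spread between arrays within groups, pooled over the groups of the fit and moderated across genes.

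The array medians of the oil group were 5.55 to 5.59, and arrays correlated at 0.978 to 0.988 with each other. Genes were named as follows: Nras and its family, the 15 largest increases and decreases among called genes, in every list at most 4 genes, taken by smallest adjusted p, and the neighbours of Nras. Others were picked after their values were seen, namely Angptl8, G6pd2, Tifa, Lbp, Saa1, Serpina3n, Cd163, the transcription regulators, genes called in all treatments, members of the chromosome 2 run and genes with opposite effects. Some genes that the rule names are not reported here. The comparison, the gene lists and the tests were chosen with earlier results of these data known. Alternatives were other normalizations, filters, floors, variance models, array weights, tests, numbers of arrays in the fit, and leaving out each array.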

Additional observations from a re-analysis of the deposited data

Results flagged for a closer look

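The genotype effect after CCl4 differed from that in oil, by the interaction test in limma, in a number of the genes named. The values are the effect after CCl4 less that in oil, in log2 units, and the oil arrays that chose these genes enter them. The difference was above 0 for Fkbp14 (2.10), Gdf10 (1.69), G6pdx (2.10), Ube2u (1.69), Angptl8 (1.58), Me1 (1.34), G6pd2 (1.08), 1700001C19Rik (1.37) and Adh6-ps1 (2.11), all of them lower in N-RAS-/- livers in oil. It was also above 0 for Gm14295 (0.97), Gm14419 and Gm2004 (0.90 each), Gm2026 (0.84) and Zfp931 (0.94) of the chromosome 2 run, which were higher in oil and higher by more after CCl4. It was below 0 for 1810046K07Rik (-2.61), Igsf11 (-1.53), Plbd1 (-1.34), Orm2 (-1.93), Lcn2 (-2.63), Tifa (-2.23), Slc13a3 (-1.32), Spi1 (-1.47), Lrtm1 (-2.06), Meiob (-2.02) and D630033O11Rik (-1.27), all of them higher in oil.

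Probe sets annotated with several genes stood outside the gene table. Of these 836, 29 differed between the genotypes in oil when p-values were adjusted over all 22206 probe sets, 21 higher and 8 lower in N-RAS-/- livers. The set shared by Ifi202b and Ifi205, interferon-inducible genes of the p200 family, measured 3.25, 2.60 and 2.77 in N-RAS+/+ and 5.51, 6.16 and 7.48 in N-RAS-/- livers (difference 3.51 ± 0.35, adjusted p = 0.000125, limma).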

How the results depend on the processing

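Of the settings for the oil comparison (179 genes called), fitting only the 6 oil arrays gave 64 genes, a floor at a linear signal of 32 gave 76, a fold change of at least 2 gave 104, and the methods' t-test gave 2174 unadjusted and 0 after Benjamini-Hochberg adjustment. Leaving out single oil arrays gave 76 to 156, the lowest without N21. The other settings stayed within 1.5 times: 258 genes with all 24 arrays, 150 with quantile normalization, 160 with median centring, 218 without the genes under the 40th percentile, 178 with probe sets averaged, 240 with a variance trend and 181 with array weights. All 24 arrays kept 155 of the 179 genes, and the 6 oil arrays alone kept 63. For the difference between the effects after CCl4 and in oil (499 genes), all 24 arrays gave 835, the filter 753, the floor 301 and leaving out single arrays 263 to 536, the lowest without N25. The causes were not tested. For the 84 genes named, no difference changed sign past the threshold under any setting: of 504 values without a single oil array 392 kept their side of the threshold, 108 lost the call and 4 gained it, and of 751 values under the other settings the counts were 649, 94 and 8. Where the groups do not overlap, leaving out an array cannot change the sign. All values of G6pd2 lay under the floor, so that it has no value there. With 3 arrays a group the calls near the threshold rest on single arrays.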
